A study of Sus scrofa with 4 samples.

Results

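The cells described here were gated as neutrophils of regenerated pig bone by transcripts of at least 2 of CXCL8, CSF3R and CXCR2. They held almost none of a set of interferon response genes or of a set of granule genes. A barcode was a member when it had at least 200 genes and under 20% of its transcripts in the 13 mitochondrial genes, when at least 2 of CXCL8, CSF3R and CXCR2 had at least 1 unique molecular identifier (UMI, a tag that marks 1 captured transcript), and when CD3E, CD79B, CSF1R and EPX had 0. The summed UMIs of IFIT1, IFIT2, IFIT3, OAS1, HERC5 and ISG15 could be at most 1, and so could the sum of LTF, MMP8, PGLYRP1, NPG1 and PR39. This gave 5308 members of 50935 kept cells. They are called CXCL8 neutrophils below. Members were thus chosen by measured UMIs of the genes of the rule, which are given below as a description only.

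Neutrophils are short-lived phagocytes that leave the bone marrow for blood and enter injured tissue. CXCL8 (interleukin-8) is a chemokine that draws further neutrophils, CXCR2 is one of its receptors, and CSF3R is the receptor of granulocyte colony-stimulating factor, which drives neutrophil production. Granule proteins such as lactoferrin (LTF) and collagenase (MMP8) are made mainly while neutrophils mature in the marrow, whereas mature tissue neutrophils can make cytokines, chemokines and interferon response genes. In healing bone, neutrophils are among the first cells to arrive, and some of their products act on osteoblasts and osteoclasts.

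The tissue, from 8-month-old Bama mini-pigs (Sus scrofa), was regenerated bone, digested with collagenase and freed of red cells by lysis, per the labels. Droplet libraries of single cells were made with the 10x Genomics 3′ chemistry. The 1797 peptide group and the control peptide group had 2 libraries each, and the labels do not describe the peptides further. Other control samples that the series names were not analysed here. Whether the libraries of a group stem from separate animals is not given in the labels, so p-values between the groups measure only the spread between these libraries, which may be technical. Values are given for library 1 and then library 2 of a group.

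Each library kept 11855 to 13401 barcodes, and the libraries held 87844389 to 98758412 UMIs. Barcodes under 200 genes numbered 1159 in 1797 library 1 and 55 to 309 elsewhere, and the CXCL8 neutrophils of that library had a median of 4.92% of UMIs in mitochondrial genes, while those of the remaining libraries had 2.18% to 2.42%. Barcodes of members that 2 libraries shared numbered 0 to 3 per pair. Counts of libraries of a group did not agree within sampling noise: chi-square over genes, divided by its degrees of freedom, was 25.87 between 1797 libraries and 13.12 between control libraries. Each library was therefore counted as a sample of its own.

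The neutrophil identity of the members was checked on genes that the rule did not use. Levels are CPM, the UMIs of a gene scaled to the total of the summed cells, and shares of cells with a UMI stand beside those of CD3E-positive T cells, which should lack these genes. TREM1, an activating receptor of neutrophils and monocytes, was detected in 83.8% and 87.4% of CXCL8 neutrophils of 1797 libraries and in 82.1% and 88.9% of those of control libraries. T cells, whose median depth of 6806 to 8128 UMIs was several times that of the neutrophils, had TREM1 in 6.24% and 16.1% of cells of 1797 libraries and in 8.95% and 19.8% of those of control libraries. After each cell was thinned to 500 UMIs, TREM1 remained in 47.7% to 57.3% of CXCL8 neutrophils and in 1.1% to 3.38% of T cells. TGM3, a transglutaminase, reached 8690 and 12796 CPM in 1797 libraries and 3616 and 10603 CPM in control libraries. Its level was lowest in control library 1, and the groups overlapped.

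Of the rule genes, CXCL8 stood at 9501 and 17592 CPM in 1797 libraries and at 10479.8 and 12173 CPM in control libraries. CSF3R lay between 715 and 825 CPM and CXCR2 between 316 and 531 CPM. The S100 alarmins, which many neutrophils hold in large amounts, were low. S100A8 was detected in 14.1% and 18.7% of CXCL8 neutrophils of 1797 libraries and in 7.51% and 33.1% of those of control libraries, against 2.85%, 13.7%, 2.56% and 47.6% of T cells of the same 4 libraries. In control library 2 the share was below that of the deeper T cells, and there the level of S100A8 in CXCL8 neutrophils, 459 CPM, was close to the 427 CPM of T cells. The unthinned share in that library is thus not read as expression. After thinning to 500 UMIs the share there was 12.4% of CXCL8 neutrophils and 7.33% of T cells.

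Members varied in which markers they held. All 3 markers were found in 35.0% and 42.4% of members of 1797 libraries and in 36.5% and 49.9% of those of control libraries. CXCL8 with CSF3R but no CXCR2 was seen in 49.1% and 37.8% of members of 1797 libraries and in 47.2% and 34.0% of those of control libraries. CXCL8 was missing from only 23 and 13 members of 1797 libraries and from 16 and 13 of control libraries. The all-marker cells were also the deeper ones, with a median of 1728.5 UMIs in 1797 library 1, where members with CXCL8 and CSF3R alone had a median of 1580.0 UMIs. The pattern a cell showed therefore moved with its depth.

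The rule allowed single UMIs of the genes it names, so the cells are poor in these transcripts rather than free of them. An interferon sum of 1 was found in 23.9% and 29.4% of members of 1797 libraries and in 37.0% and 36.0% of those of control libraries. Just outside, 129 and 359 cells of 1797 libraries and 167 and 233 of control libraries had a sum of 2. A granule sum of 1 was found in 1.64% and 14.8% of members of 1797 libraries and in 1.81% and 32.8% of those of control libraries, highest where granule-gated neutrophils were most numerous. Just outside, 1 and 43 cells of 1797 libraries and 0 and 110 of control libraries had a granule sum of 2. A further 1305 and 1132 barcodes of 1797 libraries and 747 and 569 of control libraries missed membership because they showed 1 marker only.

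Most CXCL8 neutrophils were small in RNA content. Their median was 1607 and 1617 UMIs in 1797 libraries and 1628.5 and 1969.5 UMIs in control libraries, with 614 to 748.5 genes per cell. A minority of 205 members had at least 5000 UMIs, 73 and 84 in 1797 libraries and 28 and 20 in control libraries. These few cells held 30.4% and 22.9% of all member UMIs in 1797 libraries and 23.7% and 10.8% in control libraries. A doublet caller marked 9 and 8 of them in 1797 libraries and 3 and 2 in control libraries.

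The deep members carried transcripts of other cell types. The summed level of the 8 osteoblast lineage markers, bone matrix genes among them, was 7898 and 5356 CPM in deep members of 1797 libraries and 4440.0 and 5757 CPM in those of control libraries. In members under 5000 UMIs the same sum was 611 and 323 CPM in 1797 libraries and 766 and 642 CPM in control libraries. The summed neutrophil markers, 10 genes in the matrix, lay the other way, at 2976 to 5167 CPM in deep members and 16963 to 28643 CPM in the others. For both lists the ranges of the 2 depth classes did not overlap. In cells with CSF1R and CD14, described below and without CXCR2 by their gate, the neutrophil markers summed to 1606 to 4155 CPM. That range overlapped the range of the deep members, so the neutrophil identity of the deep members is uncertain. Because the deep members weigh on every sum, values for members under 5000 UMIs are given beside differences below that they moved most.

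**Figure D1:**
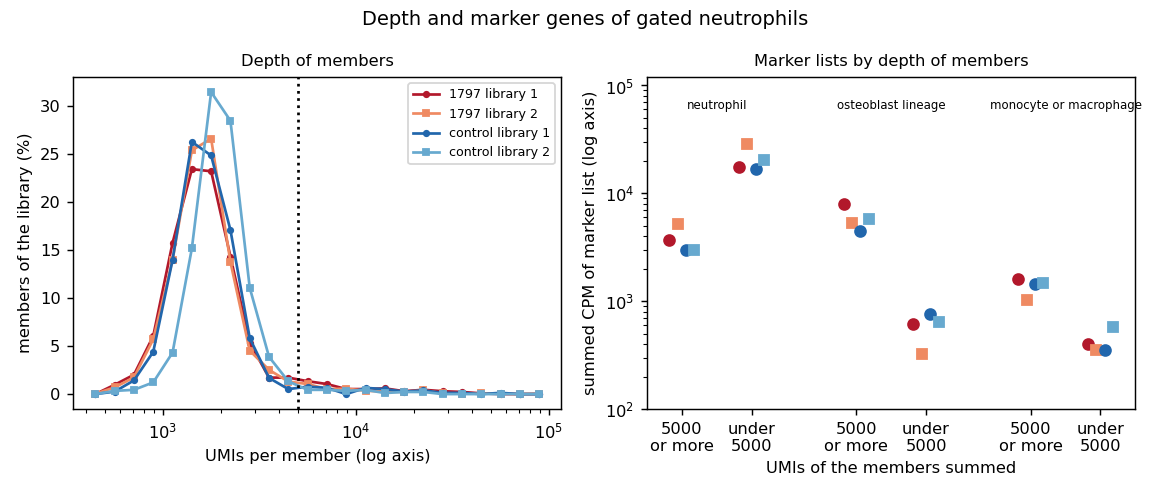
Left, the distribution of UMIs per CXCL8 neutrophil (log axis) as a percentage of the members of each library, with a dotted line at 5000 UMIs. Right, the summed CPM (log axis) of the neutrophil, osteoblast lineage and monocyte or macrophage markers in members with at least 5000 UMIs and in those under 5000, 1 point per library. The neutrophil sum is lower, and the osteoblast lineage sum higher, in the deep members of every library.

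Transcripts of other cell types were present at varied levels. CSF1R, CD3E, CD79B and EPX were at 0 by the rule, and GZMA was the only further marker at 0 in all members. The 13 monocyte or macrophage markers summed to 765 and 508 CPM in 1797 libraries and to 612 and 676 CPM in control libraries. The 7 fibroblast-like stromal markers summed to 3085 and 986 CPM in 1797 libraries and to 1499 and 833 CPM in control libraries, and in members under 5000 UMIs to 554 and 92.8 CPM in 1797 libraries and 366 and 472 CPM in control libraries. T cell markers summed to 51.7 to 91.8 CPM. Erythroid markers, mostly the haemoglobin gene HBB, summed to 7429 and 1159 CPM in 1797 libraries and to 5014 and 1372 CPM in control libraries, higher in library 1 of both groups.

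CXCL8 neutrophils made up 10.7% and 17.5% of kept cells in 1797 libraries and 5.76% and 7.61% in control libraries. The exact binomial 95% intervals were 10.1% to 11.2% and 16.8% to 18.1% in 1797 libraries and 5.37% to 6.17% and 7.14% to 8.10% in control libraries, and these cover counting error only. Both 1797 libraries lay above both control libraries, with means of 14.1 ± 4.79% in 1797 libraries and 6.68 ± 1.31% in control libraries (SD, n = 2 each). The difference of 7.39 percentage points had a two-sided exact permutation p of 0.33, which is the smallest that 2 against 2 libraries allow.

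The groups were not separated when the rule was applied to thinned counts. When every cell was thinned to 500 UMIs before the rule was applied, the share was 6.85% and 13.7% in 1797 libraries and 4.91% and 8.76% in control libraries. The groups then overlapped, with means of 10.3 ± 4.87% in 1797 libraries and 6.83 ± 2.72% in control libraries (SD, n = 2 each; exact permutation p = 0.67). Thinning also lowers the interferon and granule sums, so cells over these caps at full depth can pass. The thinned rule thus takes in a different set of cells, and the overlap cannot be assigned to depth alone. The share with all 3 markers also overlapped, with means of 5.57% in 1797 libraries and 2.95% in control libraries and an exact permutation p of 0.67. Among all barcodes that passed the neutrophil markers, whatever their interferon and granule sums, CXCL8 neutrophils were 72.0% and 53.0% in 1797 libraries and 47.6% and 27.4% in control libraries. These groups did not overlap, and the exact permutation p was 0.33. Such shares move with the interferon and granule gates beside them: interferon-gated neutrophils numbered 477 and 1553 in 1797 libraries and 833 and 1402 in control libraries, and granule-gated ones 38 and 420 in 1797 libraries and 12 and 699 in control libraries.

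**Figure D2:**
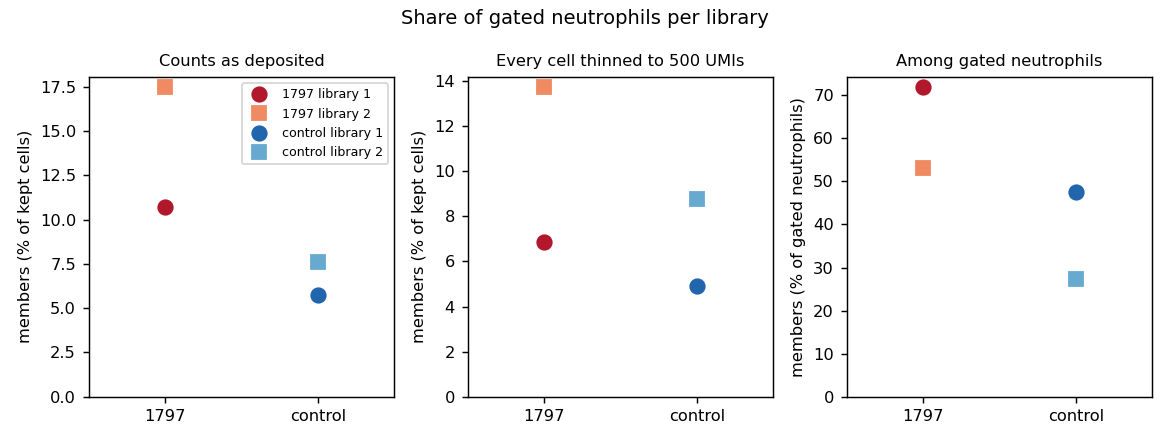
Share of CXCL8 neutrophils (members) per library, 1 point per library with 1797 libraries on the left, as a percentage of kept cells, of kept cells after thinning to 500 UMIs, and of all gated neutrophils. The 1797 points lie above the control points in the left and right panels, and the groups overlap after thinning.

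To ask how the peptide groups differed within these cells, counts were summed per library and tested with edgeR, libraries being the replicates. Of 9228 genes tested, 0 passed an adjusted p of 0.05 (0.0%), and the smallest edgeR adjusted p was 0.983. An unadjusted p under 0.05 was reached by 386 genes, which is 4.18% of those tested, and DESeq2 called 6 genes. In sums of cells, fewer transcribing cells and fewer transcripts per cell cannot be told apart. The genes that follow are thus given by their values, and none of them is called changed. They include the 8 genes each way with the smallest p among those of at least 20 CPM whose groups did not overlap. Groups did not overlap, with 1797 libraries higher, for 18.0% of all genes tested, and with 1797 libraries lower for 14.2%.

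IGF2R, the receptor that carries mannose 6-phosphate enzymes to lysosomes and takes up IGF2, lies on chromosome 1 at 7369485 to 7472480 (Sscrofa11.1). It stood at 246 and 298 CPM in 1797 libraries, against 88.8 and 77.6 CPM in control libraries. The log2 fold change was 1.68 ± 0.29 (SE, edgeR adjusted p = 0.983) and 2.28 in members under 5000 UMIs. CSF1R CD14 phagocytes had 301 and 437 CPM of IGF2R in 1797 libraries and 254 and 239 CPM in control libraries, and in T cells, at 277 and 224 CPM in 1797 libraries and 229 and 195 CPM in control libraries, the groups overlapped. In interferon-gated neutrophils it stood at 197 and 324 CPM in 1797 libraries and at 99.4 and 71.0 CPM in control libraries. Whether the fold differs between these cell types was not tested.

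Several other genes were higher in both 1797 libraries. NLRP12, a NOD-like receptor of myeloid cells, had 51.5 and 52.7 CPM in 1797 libraries and 18.0 and 11.9 CPM in control libraries, a log2 fold change of 1.78 ± 0.34 (SE). RILPL2, a protein of Rab-guided membrane traffic, had 821 and 496 CPM in 1797 libraries and 199 and 250.1 CPM in control libraries. AREG, which encodes the EGF receptor ligand amphiregulin, had 27.7 and 59.5 CPM in 1797 libraries and 6.0 and 9.45 CPM in control libraries. For all 3 the groups did not overlap, and their log2 fold changes in members under 5000 UMIs were 2.46, 1.85 and 1.91. CD80, a costimulatory ligand for T cells, was at 46.2 and 39.6 CPM in 1797 libraries and at 17.4 and 11.4 CPM in control libraries. Its log2 fold change was 1.55, and 0.67 in members under 5000 UMIs. The other 3 of the 8 were SLX4IP, SERPINE2 and ACPP, with log2 fold changes of 1.60, 1.87 and 1.83. In members under 5000 UMIs SLX4IP and ACPP had 1.16 and 2.09, and SERPINE2 did not pass the filter on low counts there.

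ERAP2, an aminopeptidase that trims peptides for MHC class I in the endoplasmic reticulum, was the lower gene with the smallest p. It lies on chromosome 2 at 103510425 to 103563482 (Sscrofa11.1) and stood at 199 and 200.2 CPM in 1797 libraries, against 767 and 1307 CPM in control libraries. The log2 fold change was -2.44 ± 0.39 (SE, edgeR adjusted p = 0.983). Interferon-gated neutrophils held 213 and 278 CPM of ERAP2 in 1797 libraries and 803 and 1596 CPM in control libraries. T cells had 68.0 and 72.7 CPM in 1797 libraries and 121 and 128 CPM in control libraries. All 3 cell sets were thus lower in both 1797 libraries, and they share their libraries.

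JCHAIN, the joining chain of antibodies and a plasma cell marker, had 2.61 and 5.54 CPM in 1797 libraries and 155 and 34.8 CPM in control libraries. The 7 plasma cell markers together, JCHAIN among them, summed to 57.3 and 52.1 CPM in 1797 libraries and to 246 and 85.0 CPM in control libraries, and their part in the result was not tested. JCHAIN had a log2 fold change of -4.44 over all members and of -2.58 in those under 5000 UMIs. In control library 1 it stood at 600.3 CPM in deep members and at 17.3 CPM in the others. MAOB, a monoamine oxidase of mitochondria, had 21.8 and 22.6 CPM in 1797 libraries and 372 and 58.7 CPM in control libraries. OLR1, a receptor for oxidised low-density lipoprotein, had 64.5 and 68.7 CPM in 1797 libraries and 161 and 141 CPM in control libraries. HERC6, of the interferon-induced HERC ubiquitin ligase family, had 75.9 and 95.8 CPM in 1797 libraries and 216 and 229 CPM in control libraries. DAPK1, a death-associated kinase, had a log2 fold change of -2.23 over all members and of -0.38 in members under 5000 UMIs. RFX1 and TCP11L2 had log2 fold changes of -1.24 and -1.04.

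**Figure D3:**
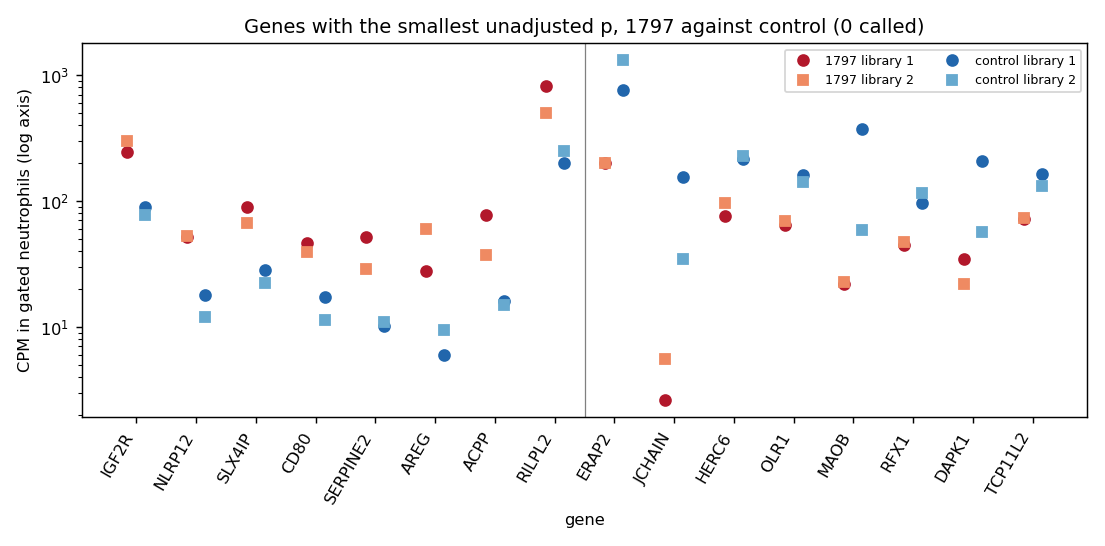
CPM (log axis) in the CXCL8 neutrophils of each library for the 16 genes with the smallest unadjusted p, 8 higher in 1797 libraries left of the line and 8 lower right of it. For each gene the 1797 points stand left of the control points, and 0 of these genes passed the adjusted threshold.

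The count of calls depended on which libraries were kept. Without 1797 library 1, edgeR called 51 genes, and without 1797 library 2 it called 164, in fits where the lone 1797 library is taken to vary like the control pair. Of these, 14 genes were called in both, ERAP2, JCHAIN, MAOB and DAPK1 among them, and 13 of the 14 had the same sign in both fits. SLPI did not, with a log2 fold change of -3.97 without 1797 library 1 and 2.11 without 1797 library 2. Leaving out control library 1 or control library 2 gave 0. DESeq2 called JCHAIN, ERAP2, MAOB, PROX1, LOC100152327 and IGF2R.

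Interferon response genes outside the rule stood lower in 1797 libraries. Of 25 tested, 21 had a negative log2 fold change and 15 were lower in both 1797 libraries than in both control libraries, a pattern shown by 14.2% of all genes. Their median log2 fold change was -0.61, against 0.03 over all genes, and it lay between -1.16 and -0.48 over the 16 settings tried. None of the 25 passed the adjusted threshold. The rule caps the interferon sum, so the list describes what was left below that cap. IFIH1, a sensor of double-stranded RNA, had 233 and 225 CPM in 1797 libraries and 338 and 319 CPM in control libraries. EIF2AK2, the kinase PKR, had 65.8 and 99.5 CPM in 1797 libraries and 138 and 239 CPM in control libraries. IRF7, a transcription factor that amplifies interferon production, had 30.9 and 46.6 CPM in 1797 libraries and 80.4 and 72.1 CPM in control libraries. In each of these 3 genes the groups did not overlap.

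MHC class I presentation genes were mixed. Of 17 tested, 13 had a negative log2 fold change, beside 4394 of 9203 genes outside the rule. Their median was -0.43, with a range of -0.51 to -0.20 over the settings tried. B2M, the light chain, had 2333 and 2679 CPM in 1797 libraries and 3076 and 3119 CPM in control libraries. SLA-1, a classical heavy chain, was the other way, with 1472 and 1585 CPM in 1797 libraries and 885 and 647 CPM in control libraries, a log2 fold change of 0.98 ± 0.28 (SE). SLA-2 had 1466 and 1219 CPM in 1797 libraries and 1620.1 and 1672 CPM in control libraries. The SLA class I genes are near copies of one another, so reads and alleles may be split between them unevenly and their separate levels are uncertain.

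Cytokine, redox and bone-directed genes had medians closer to that of all genes. Over all genes tested outside the rule, 52.3% had a positive log2 fold change. Of 24 chemokine and cytokine genes 15 (62.5%) had a positive log2 fold change, with a median of 0.10. Of 17 metallothionein and redox genes 14 were positive, with a median of 0.26 and a range of 0.15 to 0.43 over the settings. Of 22 ligands and proteases that act on bone cells 14 were positive, with a median of 0.23. ARG1, which degrades arginine, had 887 and 709.7 CPM in 1797 libraries and 476 and 445 CPM in control libraries. G0S2, an inhibitor of fat breakdown that was among the most abundant identity genes, had 3092 and 4027 CPM in 1797 libraries and 5326 and 6575 CPM in control libraries. NDRG1, a hypoxia-linked gene, had 631 and 629 CPM in 1797 libraries and 1089 and 953 CPM in control libraries. The groups of these 3 genes did not overlap, whereas CXCL2, a CXCR2 ligand, had 1127 and 1855 CPM in 1797 libraries and 873 and 1449 CPM in control libraries, which overlap. The median of 28 neutrophil identity genes was -0.15 over all members and 0.12 in members under 5000 UMIs, and that of 31 immediate early genes was -0.16 over all members and 0.02 in those under 5000.

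The next comparisons set CXCL8 neutrophils against neighbouring cell sets within the same libraries, with the library as a block. The 4 values of a set follow the order 1797 library 1, 1797 library 2, control library 1 and control library 2. Fitted fold changes use edgeR's effective library sizes and exceeded ratios of mean CPM by a median of 0.34 log2 units against granule-gated neutrophils and 0.68 against CSF1R CD14 cells, and CPM values are printed for the main genes.

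Interferon-gated neutrophils met the same rule but had an interferon sum of at least 2, and numbered 4265. The sets were alike in depth, with medians of 1607 to 1969.5 UMIs in CXCL8 neutrophils and 1660.0 to 1999 in interferon-gated ones. Of 8966 genes tested, edgeR called 117 (1.3%), 27 higher in CXCL8 neutrophils (0.301%) and 90 lower (1.0%). The count was 48 without control library 1, 66 without control library 2 and 241 without 1797 library 2, and 444 in cells under 5000 UMIs. All 27 tested interferon response genes outside the rule had lower values, and 16 of them were called, with a median log2 fold change of -1.79. That direction describes what the gate divides, since these genes respond with those of the rule. DDX58, the RNA sensor RIG-I, had 13.4, 12.5, 9.0 and 25.9 CPM in CXCL8 neutrophils and 109, 109, 123 and 264 CPM in interferon-gated ones, and it fell by 3.32 on the log2 scale (edgeR adjusted p = 7.14e-05). EIF2AK2 had 65.8, 99.5, 138 and 239 CPM in CXCL8 neutrophils and 302, 688, 585 and 897 CPM in interferon-gated ones. In both genes the sets did not overlap. TNFSF10, the death ligand TRAIL, had a log2 fold change of -3.05 and USP18, which removes ISG15 from proteins, of -2.96. Of 17 MHC class I genes 15 were lower and 2 of these were called, and in cells under 5000 UMIs 16 of 16 were lower and 10 called.

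The genes that rose in CXCL8 neutrophils over interferon-gated ones included inflammatory genes, of which IL1B lay mostly in the deep members. IL1B, which encodes interleukin-1 beta, had 319, 288, 351 and 107 CPM in CXCL8 neutrophils and 28.3, 81.9, 23.6 and 14.0 CPM in interferon-gated ones. Its log2 fold change was 2.95 ± 0.36 (SE, edgeR adjusted p = 0.00505), and 1.03 in cells under 5000 UMIs. Deep members held 856, 931, 1315 and 776 CPM of IL1B and members under 5000 held 84.7, 97.3, 51.9 and 26.2 CPM, and 2523 of the 3183 IL1B UMIs lay in the deep cells. T cells of the same libraries had 39.0, 57.4, 51.4 and 47.5 CPM. In control libraries the members under 5000 UMIs were about level with T cells or below them, so this comparison does not show IL1B expression there. T cells were also several times deeper, so the higher levels in 1797 libraries cannot separate expression from free RNA. PTGS2, the cyclooxygenase that starts prostaglandin synthesis, had 116, 139.5, 82.8 and 30.3 CPM in CXCL8 neutrophils and 34.1, 36.3, 11.3 and 7.61 CPM in interferon-gated ones, a log2 fold change of 2.08 ± 0.22 (SE, edgeR adjusted p = 0.00222). It was 1.96 in cells under 5000 UMIs. There the level in members, 53.3, 61.4, 19.6 and 12.3 CPM, lay below the 82.0, 72.9, 40.2 and 44.4 CPM of T cells. The T cell comparison thus does not show PTGS2 expression in these members. The part of free RNA in the difference from interferon-gated neutrophils was not tested.

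The S100 alarmins also rose over interferon-gated neutrophils. S100A12, a calcium-binding alarmin, had 755, 1483, 409 and 1674 CPM in CXCL8 neutrophils and 259, 647, 141 and 634 CPM in interferon-gated ones, with a log2 fold change of 1.39 ± 0.17 (SE, edgeR adjusted p = 0.00491). S100A9 and S100A8 had log2 fold changes of 1.45 and 1.55. All 3 were higher in every library, and T cells had 40.1, 432, 65.4 and 1109 CPM of S100A12, high in the same libraries as the neutrophils. The part of free RNA in this result was not tested. TIMP1, an inhibitor of matrix metalloproteinases, had 927, 623, 634 and 535 CPM in CXCL8 neutrophils and 229.9, 285, 233 and 207 CPM in interferon-gated ones, a log2 fold change of 1.46, and 0.81 in cells under 5000 UMIs. CD86, FCN1 and ARG1 had log2 fold changes of 1.40, 1.55 and 1.93, and of 1.25, 0.89 and 1.01 in cells under 5000 UMIs. AREG, with 2.22, was not called in cells under 5000 UMIs. EMP2, PLPP3, MYCT1 and PTPRB were called lower, and each was highest in the interferon-gated cells of 1797 library 1, where endothelial markers summed to 761 CPM. In cells under 5000 UMIs PLPP3 had a log2 fold change of -0.46 and was not called. The part of endothelial transcripts in these 4 genes was not tested.

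Granule-gated neutrophils, with a granule sum of at least 2, numbered 1169, of which only 38 lay in 1797 library 1 and 12 in control library 1. They were deeper, with medians of 3619 to 5622 UMIs. Of 8710 genes tested, edgeR called 2171 (24.9%), 1290 higher in CXCL8 neutrophils (14.8%) and 881 lower (10.1%). Without 1797 library 2 the count was 1015. CXCL8 neutrophils were far poorer in granule and alarmin transcripts and richer in early response, chemokine and cytokine transcripts. Of 19 granule genes outside the rule, 12 fell and 3 rose, with a median log2 fold change of -3.16, a direction the gate itself divides. LCN2, the iron-binding granule protein lipocalin 2, had 3.26, 10.7, 5.40 and 38.8 CPM in CXCL8 neutrophils and 1436, 1307, 1018 and 1886 CPM in granule-gated ones. It fell by 6.67 on the log2 scale (edgeR adjusted p = 2.48e-13). MMP9, gelatinase B, had 94.8, 109, 74.4 and 106 CPM in CXCL8 neutrophils and 1146, 839, 1995 and 1258 CPM in granule-gated ones. S100A12 had 755, 1483, 409 and 1674 CPM in CXCL8 neutrophils and 14727, 25107, 35845 and 28144 CPM in granule-gated ones. The sets did not overlap for any of these 3 genes. CRISP3, HP, TCN1 and RETN, all known from neutrophil granules, had log2 fold changes of -6.95, -5.78, -5.77 and -4.58. PADI4, the enzyme that citrullinates histones, fell by 2.12 on the log2 scale.

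Immediate early genes were higher as a group. Of 31 tested, 24 rose over granule-gated neutrophils and 0 fell, with a median log2 fold change of 1.97 against 0.01 over all genes. These genes also answer to tissue digestion, whose part was not tested. DUSP1, a phosphatase that ends MAP kinase signals, had 1110.4, 2081, 1495 and 2335 CPM in CXCL8 neutrophils and 337, 257, 416 and 307 CPM in granule-gated ones, a log2 fold change of 2.80 ± 0.32 (SE, edgeR adjusted p = 5.34e-08). NR4A3, an orphan nuclear receptor of the early response, had 713, 698, 893 and 810.3 CPM in CXCL8 neutrophils and 156, 74.1, 145 and 115 CPM in granule-gated ones. FOS and JUNB, subunits of AP-1, had log2 fold changes of 2.16 and 1.87. Of 29 NF-kB feedback genes 20 rose and 2 fell. Among them NFKB2, a subunit of the alternative NF-kB pathway, had a log2 fold change of 2.58, PLAU, which activates plasminogen, of 3.48, and IRAK3, a brake on Toll-like receptor signals, of -1.69.

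Secreted signals and receptors followed. Of 23 chemokine and cytokine genes, 14 rose over granule-gated neutrophils and 0 fell. OSM, which encodes oncostatin M, a cytokine known to act on osteoblasts, had 547, 919, 613 and 894 CPM in CXCL8 neutrophils and 311, 186, 312 and 197 CPM in granule-gated ones, a log2 fold change of 2.01 ± 0.31 (SE, edgeR adjusted p = 9.09e-06). IL1A, LIF and TNFSF14, which encode interleukin-1 alpha, leukaemia inhibitory factor and the TNF family ligand LIGHT, had log2 fold changes of 2.26, 2.45 and 3.38. CXCL2 was called at 3.58, although in control library 1 it stood at 873 CPM in CXCL8 neutrophils and 894 CPM in the 12 granule-gated cells. Of 25 surface receptors 12 rose and 1 fell. SELPLG, the selectin ligand, CXCR4, the marrow-homing receptor, and FCGR3A, an Fc receptor, had log2 fold changes of 2.20, 2.89 and 1.69, and CD177 fell by 6.27 on the log2 scale. Of 20 interferon response genes 12 rose, and of 16 MHC class I genes 10 rose. Both gates cap the interferon sum at 1 UMI per cell, a stricter limit for the deeper granule-gated cells. Among the capped genes, IFIT1 averaged 29.8 CPM in CXCL8 neutrophils and 2.79 CPM in granule-gated ones. The interferon direction is therefore a description only, and the part of the cap in the MHC class I genes was not tested.

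Among genes with a symbol that averaged at least 20 CPM and moved the same way in every library, the largest rise over granule-gated neutrophils was in GP6, annotated as the collagen receptor glycoprotein VI, best known from platelets. It had 881, 1437, 1031 and 976 CPM in CXCL8 neutrophils and 36.3, 87.9, 20.8 and 83.8 CPM in granule-gated ones, a log2 fold change of 4.44 ± 0.34 (SE, edgeR adjusted p = 1.02e-11). T cells had 13.2, 36.8, 14.1 and 21.8 CPM. VNN1, a pantetheinase, had 249, 262, 223 and 216 CPM in CXCL8 neutrophils and 36.3, 16.4, 20.8 and 13.2 CPM in granule-gated ones. AMCF-II, a pig CXC chemokine, STEAP4, a metalloreductase, and GNG8, a G protein subunit, had log2 fold changes of 4.22, 4.25 and 4.36. LRFN2, with 4.39, stood at 289 CPM in control library 2 and at 5.40 to 20.5 CPM in the other libraries.

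**Figure D4:**
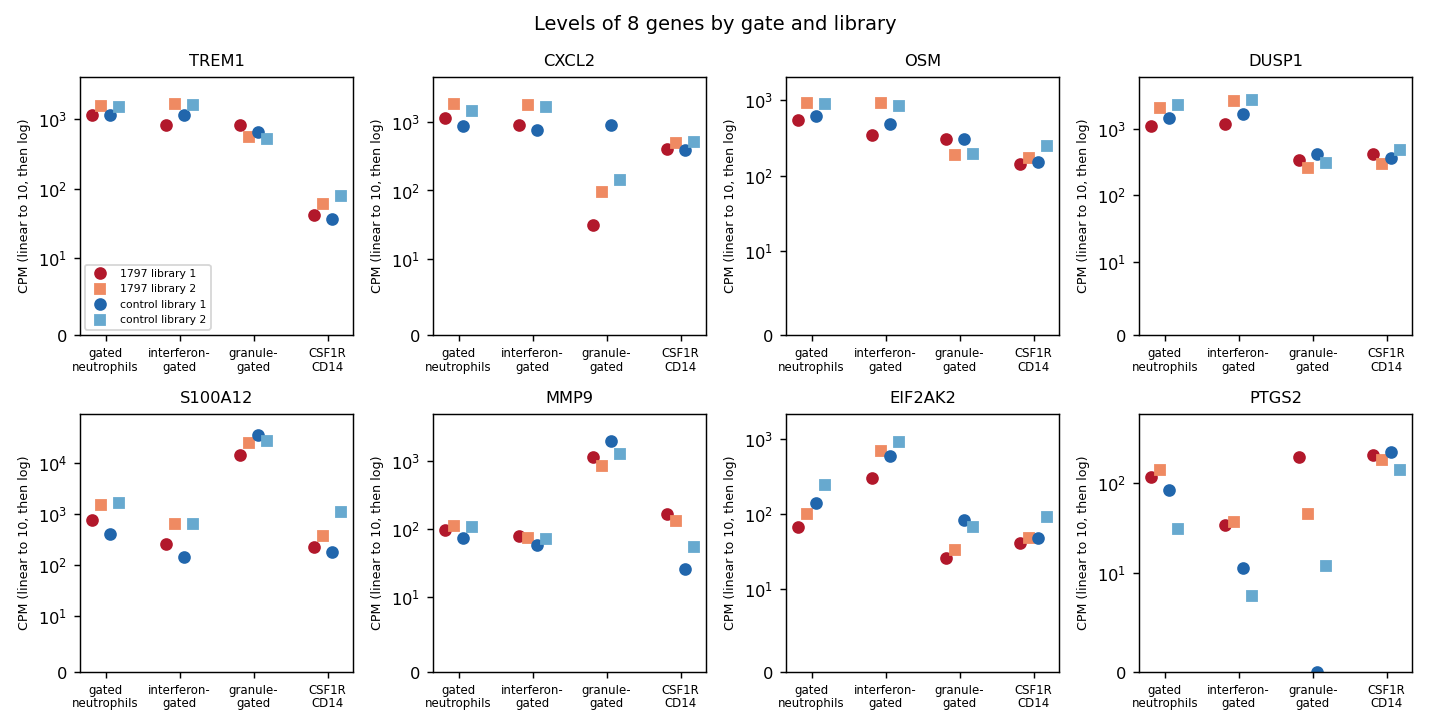
CPM (linear up to 10, then log) of 8 genes in CXCL8 neutrophils (gated neutrophils), interferon-gated neutrophils, granule-gated neutrophils and CSF1R CD14 cells, 1 point per library. TREM1, OSM and DUSP1 are higher in CXCL8 neutrophils than in granule-gated neutrophils and CSF1R CD14 cells, S100A12 and MMP9 are highest in granule-gated neutrophils, and EIF2AK2 is highest in interferon-gated ones.

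The other phagocytes of the tissue were taken as cells with CSF1R and CD14 and without CXCR2, CD3E, CD79B and EPX, 1588 in number. They were far richer in RNA than the neutrophils, with medians of 16260.0 to 20465 UMIs. Of 11599 genes tested, edgeR called 5553 (47.9%), 2724 higher in CXCL8 neutrophils (23.5%) and 2829 lower (24.4%). Of 28 neutrophil identity genes 24 rose and 2 fell, and of 24 surface receptors 19 rose and 1 fell. GP6 led again, with 8.10, 14.3, 9.28 and 16.4 CPM in CSF1R CD14 cells, a log2 fold change of 7.21 ± 0.20 (SE, edgeR adjusted p = 3.64e-06). HCAR2, the niacin receptor, had 513, 972, 1276 and 951 CPM in CXCL8 neutrophils and 13.1, 13.8, 16.7 and 20.05 CPM in CSF1R CD14 cells. SORL1, a sorting receptor, had 2066, 2671, 2859.9 and 3444 CPM in CXCL8 neutrophils and 40.04, 43.9, 50.6 and 93.5 CPM in CSF1R CD14 cells. ERG, an ETS transcription factor best known from endothelium and blood precursors, had 1197, 1364, 1864 and 1595 CPM in CXCL8 neutrophils and 56.7, 18.0, 20.1 and 49.8 CPM in CSF1R CD14 cells. None of these 4 genes overlapped between the sets.

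Over all 27 chemokine and cytokine genes, 8 rose and 5 fell against the CSF1R CD14 cells, beside 23.5% and 24.4% of all genes. In members under 5000 UMIs 9 of the 27 rose and 12 fell, beside 3003 and 3794 of 10987 genes outside the rule. OSM had 547, 919, 613 and 894 CPM in CXCL8 neutrophils and 144, 174, 154 and 251 CPM in CSF1R CD14 cells, and rose by a log2 fold change of 2.73. LIF, CXCL2 and TNFSF14 rose by 2.74, 2.21 and 5.68. CCL2, a monocyte chemokine, VEGFA, the vessel growth factor, and HBEGF, an EGF receptor ligand, fell by 1.60, 1.71 and 1.54 on the log2 scale. CCL2 had 52.4, 61.3, 59.4 and 40.8 CPM in CXCL8 neutrophils and 202, 342, 258 and 249.9 CPM in CSF1R CD14 cells. In members under 5000 UMIs the log2 fold changes of CCL2, VEGFA and HBEGF were -2.90, -2.70 and -2.85.

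Macrophage and MHC class II genes were low, and MHC class I genes were not. MSR1 and MRC1, scavenger and mannose receptors of macrophages, fell by 4.25 and 4.10 on the log2 scale, and MERTK, which takes up dead cells, by 3.58. Of 13 MHC class II genes 10 fell and 1 rose, whereas of 17 MHC class I genes 10 rose and 2 fell, with a median log2 fold change of 1.00. Ribosomal genes were low as well, with 19 of 21 falling and a median log2 fold change of -0.96, against -0.13 over all genes. LYZ, lysozyme, and the cathepsins CTSB and CTSS fell by 2.87, 2.24 and 1.45. CYBA, a subunit of the NADPH oxidase, was 1 of the 2 identity genes that fell, by 1.47, and SOD2 was the other, by 0.67.

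**Figure D5:**
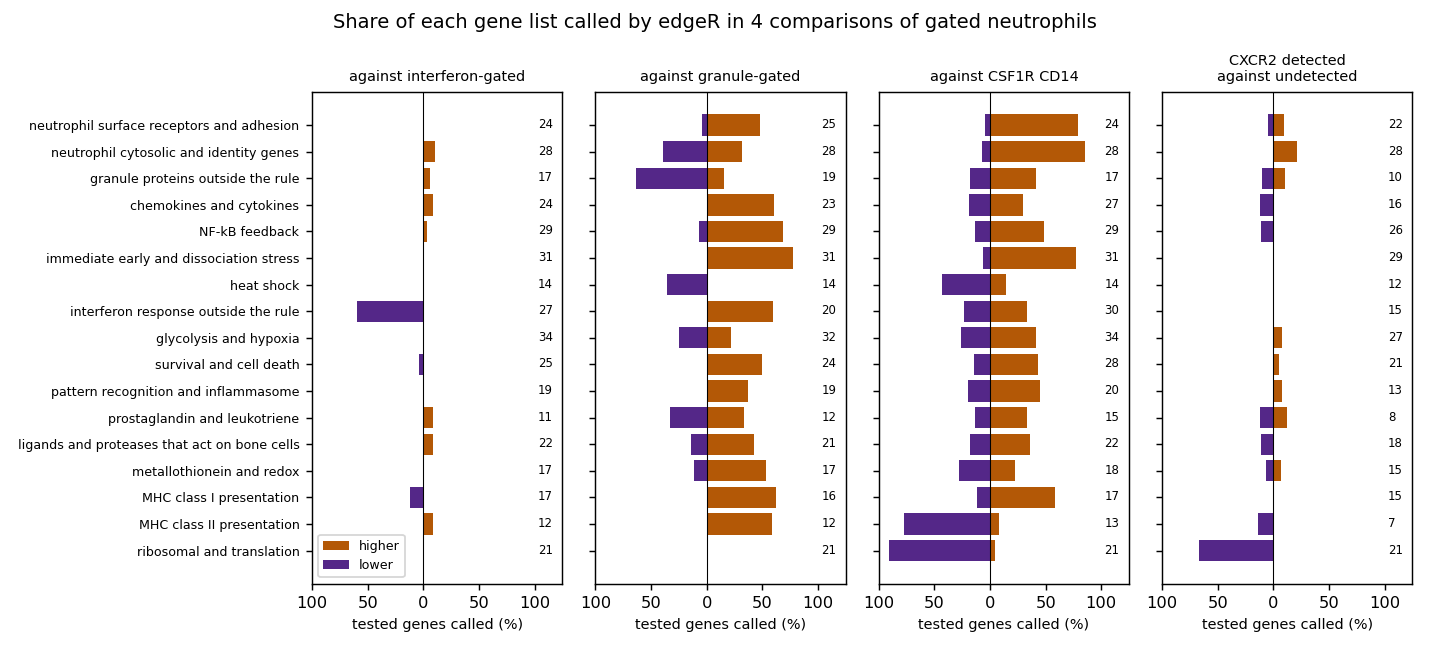
For 17 gene lists, the percentage of tested genes that edgeR called higher (right of 0) or lower (left of 0) in CXCL8 neutrophils against interferon-gated neutrophils, granule-gated neutrophils and CSF1R CD14 cells, and in members with CXCR2 detected against those without it. The number at the right of each panel is the number of genes tested. Immediate early genes are called higher against granule-gated neutrophils and CSF1R CD14 cells, and ribosomal genes are called lower in the right-hand panels.

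Differences among the CXCL8 neutrophils themselves were looked for by the receptor CXCR2, which neutrophils are known to lose from their surface after activation. Only its transcripts were measured here. Members under 5000 UMIs with both CXCL8 and CSF3R were split by whether CXCR2 had at least 1 UMI, a split added after these data were seen. CXCR2-detected cells numbered 453, 957, 275 and 445, and CXCR2-undetected cells 604, 808, 347 and 298. The detected cells were somewhat deeper, with medians of 1706 to 2032 UMIs against 1518 to 1842.5. Of 4756 genes tested, edgeR called 243 (5.11%), 132 higher in CXCR2-detected cells (2.78%) and 111 lower (2.33%). The count was 53 without 1797 library 2, 89 without control library 2 and 96 without 1797 library 1.

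CXCR2-detected cells had higher levels of S100 alarmin transcripts. S100A12 had 988, 1889.98, 425 and 2283 CPM in CXCR2-detected cells and 831, 1217, 274 and 750.2 CPM in undetected ones, a log2 fold change of 0.84 ± 0.14 (SE, edgeR adjusted p = 0.0039). S100A9, S100A8 and ALOX5AP, the last a helper of leukotriene synthesis, had log2 fold changes of 0.70, 0.78 and 0.49. The S100 genes were high in the libraries where T cells also held them, with 40.1, 432, 65.4 and 1109 CPM of S100A12 and 15.2, 148, 19.9 and 427 CPM of S100A8 in T cells, and the part of free RNA was not tested. Of 22 surface receptors 2 rose, C5AR1, the receptor of complement C5a, by 0.34 and TREM1 by 0.22, and 1 fell, the interleukin-1 decoy receptor IL1R2, by 0.88. Of 28 identity genes 6 rose and 0 fell. NETO2 had the largest log2 fold change of the named genes, 1.21, and was higher in CXCR2-detected cells of every library.

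CXCR2-undetected cells held more transcripts of arginase and interleukin-1 beta. ARG1 had 122, 226, 85.8 and 105 CPM in CXCR2-detected cells and 519.8, 632, 206 and 502 CPM in undetected ones, a log2 fold change of -1.74 ± 0.13 (SE, edgeR adjusted p = 3.53e-06). T cells had 85.3, 160.4, 165 and 275 CPM of ARG1, so the detected cells lay above T cells in 1797 libraries and below them in control libraries. IL1B had 19.4, 49.1, 33.9 and 3.18 CPM in CXCR2-detected cells and 161, 204, 78.0 and 74.5 CPM in undetected ones, and fell by 2.32 on the log2 scale (edgeR adjusted p = 0.000322). PTGS2 had 13.3, 26.8, 5.99 and 8.48 CPM in CXCR2-detected cells and 51.8, 129, 34.6 and 20.8 CPM in undetected ones. In each of these 3 genes the undetected cells were higher in every library. T cells lay at 39.0 to 57.4 CPM of IL1B, below all undetected cells, and at 40.2 to 82.0 CPM of PTGS2, within the range of the undetected cells. T cells were several times deeper, so equal free RNA per droplet would give them fewer CPM. For ARG1, IL1B and PTGS2 the T cell levels therefore cannot separate expression from free RNA. IRAK2, a kinase of interleukin-1 receptor signals, and HBEGF fell by 1.55 and 1.42. Ribosomal genes were lower in the detected cells as well, with 14 of 21 called and a median log2 fold change of -0.38. RPS12 and RPL3 fell by 0.54 and 0.59. Of 7 MHC class II genes tested, 7 had negative values and 1 was called, with a median log2 fold change of -0.50. Of 7 neutrophil markers outside the rule 4 were called higher and 1 lower, beside 2.78% and 2.33% of all genes. Of 9 monocyte or macrophage markers 6 had positive values, and 1 was called lower. Most MHC class II and ribosomal genes, and HBEGF, were also higher in CSF1R CD14 cells. Whether other cell types lie among the undetected cells was not tested.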

How the data were processed

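The deposited files hold raw UMI counts of 20648 genes per barcode for 4 libraries. The submitters' processing notes name Cell Ranger 5.0.0 and the build Sscrofa11.1. Per the file headers, the matrices carry version 7.0.1. Every barcode had at least 500 UMIs, so emptier droplets had been removed. The gene and barcode lists that accompany the counts are names, and 0 columns of other samples were present. Coordinates come from a RefSeq gene table of Sscrofa11.1, counted from 1.

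Members were found by their UMIs as described in the report. Doublets were called with Scrublet in scanpy 1.11.5 (expected rate 0.1) and kept, except in an alternative. Raw counts were summed per library and gate, since cells are not replicates, and compared by edgeR 4.0.16 under R 4.3.3 (quasi-likelihood test, filterByExpr, TMM, Benjamini-Hochberg over all genes tested, called at 0.05). Comparisons between gates had the library as a block. Granule-gated neutrophils had under 50 cells in 2 libraries. DESeq2 1.42.0 was an alternative. CPM are scaled to the total of the gate in a library. Shares were compared with exact permutation tests over libraries.

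Named genes were up to 10 each way called by edgeR, with a log2 fold change of at least 1 in size, a mean of at least 20 CPM and the same direction in every library; up to 4 genes of highest level, plus called members, of each list described; and, between the peptide groups, the 8 genes each way with the smallest p and no overlap. TGM3, and genes called by DESeq2 alone, were named after their values were seen. The members, the 17 gene lists and the 17 marker lists were chosen with earlier results of these data known, and the lists get counts and medians only. Alternatives were other size factors, DESeq2, no filter on low counts, doublets removed, stricter cell filters, interferon and granule sums of 0, thinning to 500 UMIs, the replicate number as a block and each library left out. Members under 5000 UMIs, the CXCR2 split and the joining of interferon-gated cells were added after the data were seen.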

Additional observations from a re-analysis of the deposited data

How the results depend on the processing

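The mean share of CXCL8 neutrophils was higher in 1797 libraries than in control libraries in every setting tried. With 1 library left out the difference was 3.998 to 10.8 percentage points. Single libraries of the groups overlapped after thinning and with all 3 markers. Between the peptide groups edgeR called 0 genes; DESeq2 called 6, no filter on low counts gave 4, and leaving out 1 library gave 0 to 164. Replicate numbers 1 and 2 occur in both groups, but the deviations of same-numbered libraries had a correlation of 0.047 over 9228 genes, with 2 pairs, and the fit with the replicate block also called 0. Of 38 genes whose log2 fold change was recomputed in every setting, 4 changed sign in at least 1, and their values were 0.31 for CXCL2, 0.34 for C5AR1, -0.67 for CD74 and -0.18 for AZU1 with all libraries: with 1 library left out CXCL2 ranged from -0.18 to 0.85, C5AR1 from -0.12 to 0.93, CD74 from -1.42 to 0.91 and AZU1 from -6.05 to 8.09, and AZU1 had 0.15 with the replicate block and 0.94 with interferon-gated neutrophils joined.

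Against interferon-gated neutrophils the 117 calls became 245 with DESeq2, 437 with no filter on low counts, 444 in members under 5000 UMIs, 13 with no replicate block (no library block), 1746 with gates on thinned counts and 48 to 241 with 1 library left out. Calls against granule-gated neutrophils numbered 1015 to 2294 with 1 library left out, and those against CSF1R CD14 cells 3788 to 5256. The 243 calls of the CXCR2 split became 158 with DESeq2, 134 with interferon and granule sums of 0, 871 in members of any depth, 1 with no replicate block and 53 to 184 with 1 library left out. The causes were not tested. The gates could not be fitted against granule-gated neutrophils after thinning, since control library 1 then had 0 such cells. A comparison by CXCL8 detection was not run, with 13 to 23 undetected members per library. Depth limits the rule itself: at these depths a cell can miss a marker or an interferon UMI that it expresses.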

Other observations

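Gene groups not described above also differed from granule-gated neutrophils. Of 24 survival and cell death genes, 12 rose and 0 fell in CXCL8 neutrophils, with a median log2 fold change of 1.12, and of 17 metallothionein and redox genes 9 rose and 2 fell, against 14.8% and 10.1% of all genes. Of 14 heat shock genes, 5 fell and 0 rose over granule-gated neutrophils, and 6 fell and 2 rose over CSF1R CD14 cells, where 24.4% of all genes fell and 23.5% rose.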
